A study of Nasonia vitripennis with 23 samples.

Results

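Serine proteases and serine protease homologues were followed in the heads of female *Nasonia vitripennis*, a parasitoid wasp. Members were all genes in the table of read counts whose symbol was SP (serine protease) or SPH (serine protease homologue) followed directly by a number. This gave 51 of the 14131 genes listed, of which 43 were SP and 8 were SPH. All 51 had at least 1 read in the 22 libraries analysed, among 13599 such genes in all. Genes with any other kind of symbol were left out, whatever they encode.

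Each library was made from polyA RNA of 12 pooled heads of AsymC females, a strain freed of *Wolbachia*. These females had oviposited for 3 h on fly pupae, and STDR females, a red-eyed mutant strain, served as co-foundresses. The single-foundress group had no co-foundress (7 libraries), the five-foundress group had 4 (7 libraries) and the 10-foundress group had 9 (8 libraries). Focal females of all 3 groups had been given a host and then honey solution beforehand and had hosts during the trial, so that none of the groups was without hosts. The library of single-foundress replicate 2, which the study removed as an outlier, is not among the 22 and is given apart.

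Serine proteases of this family cut other proteins with a catalytic triad of histidine, aspartate and serine. In insects they digest food in the gut, and they act one after another in blood cascades that lead to melanization and to the Toll pathway, in which serpins stop them. Homologues keep the fold but lack part of the triad, and some serve as cofactors of the active proteases. The numbers in the symbols are names only, and the files do not annotate what each numbered *Nasonia* gene does.

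Total counts per library ran from 25194329 to 69696501 over these 22 libraries. Levels are given in CPM (a gene's counts brought to a common library size with the TMM factors of edgeR). CPM is not corrected for the length of a transcript, so that it ranks genes by their reads and not by their number of molecules. As a check of the tissue, Lop1, which encodes a long wavelength opsin of the eye, had 5579 to 12025 CPM, and 211 of 214 odorant receptor genes (Or symbols) were detected, with a summed 156.5 to 969.0 CPM. Among other lists matched by symbol, the 3 hexamerins (storage proteins of the fat body) summed to 9.58 to 25.4 CPM. The 3 germline and cell division genes (oskar, nanos and cycB) summed to 8.39 to 16.3 CPM. By contrast, the 2 defensins, listed as immune genes, summed to 33.4 to 5671 CPM. How much fat body the pools held was not tested. Gut, venom gland and muscle markers could not be matched by symbol, and whether such tissue was in the pools was not tested.

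Reads of the family were held by few members. Of the 51, 18 had a mean of at least 100 counts per library, 15 had 10 to 100 and 18 had fewer than 10, and 34 had at least 1 read in every library. A mean of at least 100 counts was reached by 35.3% of the members, against 68.4% of all 13599 genes. Among the SP genes 14 of 43 reached it, and among the SPH genes 4 of 8. The median member had 0.861 CPM among the SP genes and 8.59 CPM among the SPH genes, which is a difference in reads and, with transcript lengths not given, not one in level. The SPH value lies midway between the means of SPH103 (1.48 CPM) and SPH125 (15.7 CPM). SPH125 had a median of only 0.531 CPM over the 22 pools. The SPH value thus rests on the few pools with many reads of SPH125, and the 2 class medians do not show a general difference.

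SPH21 had the most reads of all members, with 267 ± 127 CPM (SD, n = 22) and 26.7% of the summed CPM of the family. SP16 followed with 127.8 ± 66.5 CPM, SP22 with 92.0 ± 19.8, SP120 with 88.2 ± 32.0, SPH42 with 86.1 ± 20.5 and SP110 with 82.0 ± 10.8 (SD, n = 22 each). These 6 genes made up 74.3% of the family's CPM, and SPH126 (48.6 ± 17.7 CPM) and SP76 (44.6 ± 85.2 CPM) came next. Below these, SPH125 had a mean of 15.7 CPM and SPH103 of 1.48 CPM. At the other end, SPH29 and SP11 had 0 or 1 read per library. The plot of CPM by member shows that the bars of SP76 and SPH125 are by far the longest among the well covered members.

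**Figure D1:**
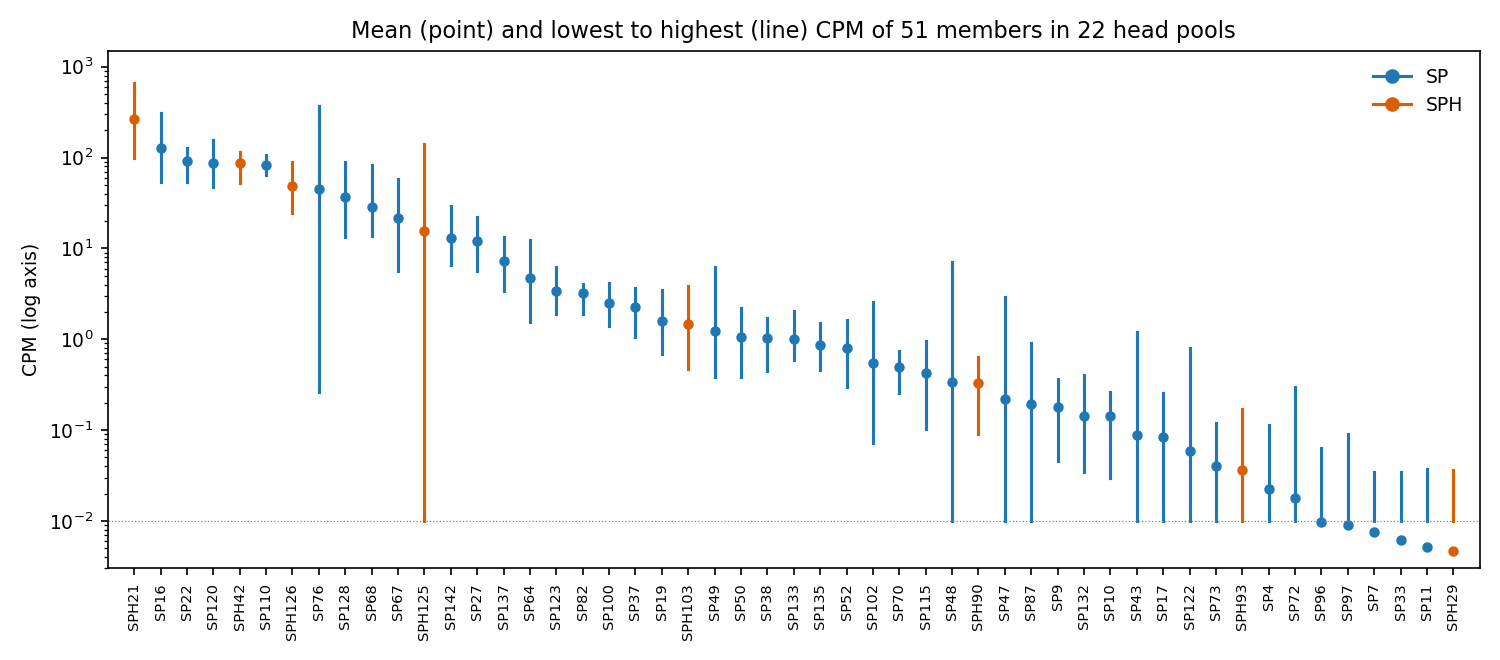
Mean CPM (points) and the range from the lowest to the highest of 22 head pools (lines) for the 51 members, ordered by mean, on a log axis; SP genes are blue and SPH genes orange. Ranges that reach below 0.01 CPM, shown by the dotted line, are cut there. SP76 runs from 0.260 to 365.8 CPM and SPH125 from 0 to 141.3 CPM, whereas SP110 stays between 63.5 and 107.0 CPM.

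The numbered symbols followed the order of genes in places. All 51 symbols were found in RefSeq's gene table of assembly Nvit_psr_1.1, which is another assembly than the one used for counting and served here for the order of genes alone. With at most 4 other genes between neighbouring members, 27 members lay in 9 clusters and 24 stood alone. One cluster held SP10, SP17, SP11, SP9, SP7 and SP4, whose means were all between 0.182 and 6.64 counts per library. A second held SP123, SP128, SP120 and SPH126, and another SP22, SP16 and SP19. SP47, SP48, SP49 and SP52 were next to each other with no gene between them. Reads that mapped ambiguously to genes were dropped in counting, and how alike the sequences of neighbouring members are could not be examined here, so that counts of close copies are uncertain.

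The spread between pools was wide for this family. The SD of log2 CPM over the 22 libraries had a median of 0.56 among the 18 members with a mean of at least 100 counts (0.56 for the 14 SP and 0.58 for the 4 SPH genes). Over all 9301 genes with this mean, the median SD was 0.29 and the upper quartile 0.43. An SD above 1 was found for 1.87% of these genes and for 2 of the 18 members, 1 SP (SP76) and 1 SPH (SPH125). The members next to this limit were SP76, with 2.95, and SP67, with 0.94. The biological coefficient of variation that edgeR gave to each gene was above the trend for genes of the same abundance in 12 of the 18 members (9 of 14 SP and 3 of 4 SPH), against 26.2% of the 9301 genes with this mean. The SP and SPH genes therefore had similar medians of spread, and each group had 1 member far above the others.

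**Figure D2:**
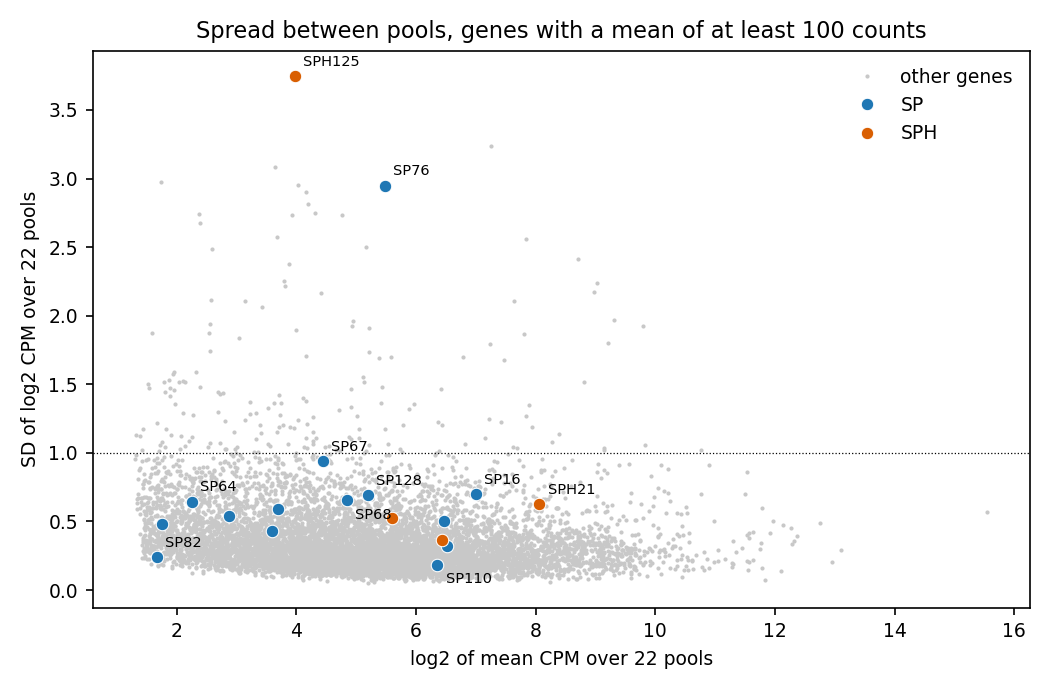
SD of log2 CPM over 22 head pools against the log2 of the mean CPM for the 9301 genes averaging 100 counts or more; SP genes are blue, SPH genes orange and other genes grey, and the dotted line marks an SD of 1. SPH125 is the highest point of all at 3.75, SP76 lies at 2.95 and the other 16 members lie between 0.19 and 0.94.

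SPH125 (NCBI Gene 100120975) had the largest SD of all 9301 genes, at 3.75 on the log2 scale. It had 0 CPM at the lowest, 4.57 at the median and 141.3 at the highest in the single-foundress group, 0, 2.21 and 60.6 in the five-foundress group, and 0, 0.345 and 11.7 in the 10-foundress group. Replicates 8, 10, 16 and 20 had no read of it. Against the limit that a count of 0 allows in replicate 8 (3 counts, or 0.0976 CPM), single-foundress replicate 6 was at least 1448-fold higher. Each group thus held pools without detectable SPH125, and the ranges of the 3 groups overlapped.

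SP76 (NCBI Gene 100120580) ranked sixth by SD. Its lowest, median and highest values were 0.260, 12.9 and 365.8 CPM in the single-foundress group, 0.510, 8.44 and 137.8 CPM in the five-foundress group, and 0.388, 3.89 and 19.4 CPM in the 10-foundress group. The highest pool had 1405 times the CPM of the lowest, and the second highest 355 times that of the second lowest. Single-foundress replicates 5, 6 and 7 and five-foundress replicates 11 and 15 all exceeded 100 CPM, with 107.5, 365.8, 119.8, 124.8 and 137.8 CPM, and these same 5 pools had the 5 highest values of SPH125. The ranges of the 3 groups overlapped for SP76 too.

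The 2 genes rose and fell together across pools. The Pearson correlation of their log2 CPM over 22 libraries was 0.83 and Spearman's rho 0.76 (permutation p-values adjusted over the 28 pairs of the 8 widest members 0.00014 and 0.00126). Without single-foundress replicate 6 and five-foundress replicate 11, r was 0.76. Within groups r was 0.98 in the single-foundress (n = 7), 0.70 in the five-foundress (n = 7) and 0.63 in the 10-foundress pools (n = 8). SPH125 and SP76 were not neighbours, as 20 other genes lay between them in the gene order. Five-foundress replicates 10 and 16 departed from the pattern, with 8.44 and 8.09 CPM of SP76 and no read of SPH125. So did 10-foundress replicate 18, with the highest SP76 of its group (19.4 CPM) and 0.295 CPM of SPH125. In 10-foundress replicate 17 SPH125 (11.7 CPM) was above SP76 (9.22 CPM).

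The remaining 6 of the 8 widest members were SP67, SP16, SP128, SP68, SP64 and SPH21. SP67 (SD 0.94) had 5.68 CPM in 10-foundress replicate 19 and 58.5 CPM in five-foundress replicate 10. SP16 (SD 0.70) lay between 53.7 and 312.4 CPM, SP128 (SD 0.69) between 13.3 and 90.01, SP68 (SD 0.65) between 13.9 and 82.7, SP64 (SD 0.64) between 1.56 and 12.3 and SPH21 (SD 0.63) between 100.02 and 665.1. The steadiest of the 18 members were SP110 with an SD of 0.19 (63.5 to 107.0 CPM), SP82 with 0.24 (1.92 to 4.08 CPM), SP22 with 0.32 (54.3 to 128.6 CPM) and SPH42 with 0.37 (53.1 to 113.9 CPM). SP110 was thus steadier than most genes, since 19.3% of the 9301 genes had a smaller SD.

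Of the 153 pairs among the 18 members, 34 had a correlation past an adjusted permutation p of 0.05, all of them positive. Pools of one table share the scaling by depth and the composition of the head sample, and these correlations are descriptions of the same 22 libraries. When the members were grouped by average linkage at r of 0.5, a step chosen after the values had been seen, 3 sets of more than 1 member resulted. SPH21, SP16, SP22, SP27, SP142, SP67, SP110 and SP128 formed the first, with a median r of 0.72 between members. SP120, SPH126, SP68 and SP123 formed the second, with a median r of 0.77. SP76 and SPH125 formed the third. SP82, SP137, SP64 and SPH42 stayed apart. Across sets and single members the median r was 0.01 and the lowest, between SPH21 and SPH126, was -0.50 (adjusted permutation p = 0.0693). The grouping used these same correlations, so that higher medians within sets than between them follow from it. SP and SPH genes were mixed in each of the 3 sets.

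**Figure D3:**
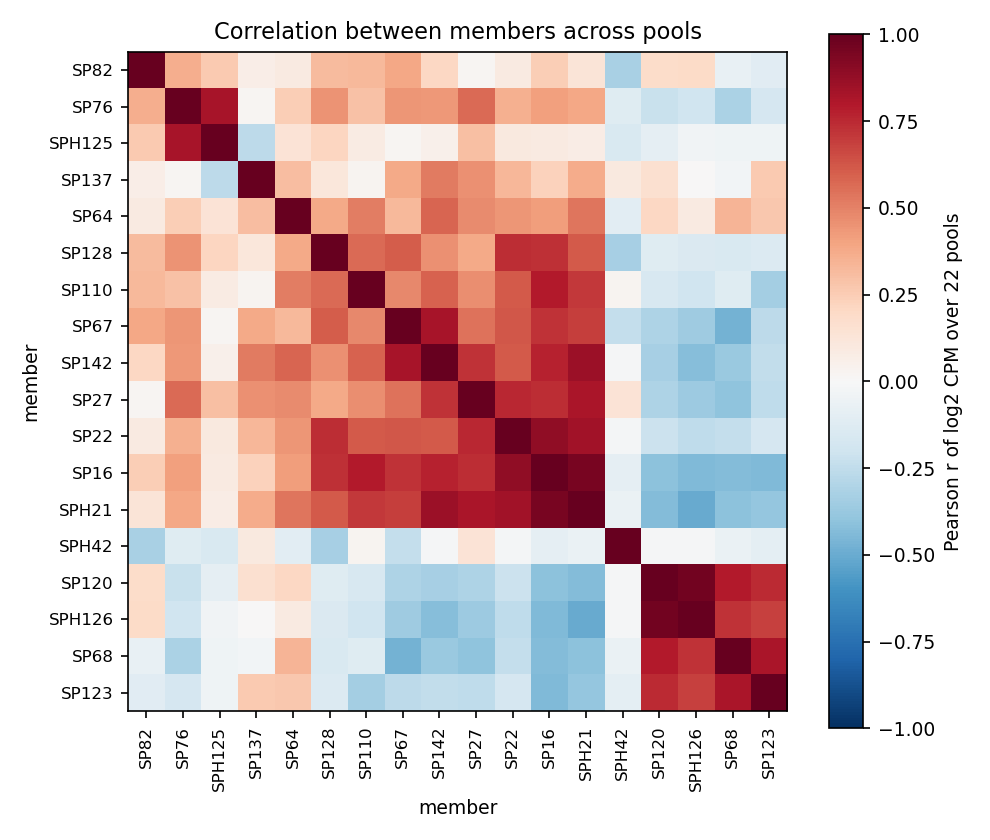
Pearson correlation of log2 CPM over 22 head pools for each pair of the 18 members averaging 100 counts or more, ordered by average linkage; red is positive and blue negative. The large red square runs from SP128 to SPH21, the smaller one at the lower right holds SP120, SPH126, SP68 and SP123, and SP76 and SPH125 form a pair.

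In the first set the homologue SPH21 and the protease SP16 had an r of 0.95 and a rho of 0.96 (adjusted permutation p-values over the 28 pairs 0.00014 and 0.00028), and r was 0.94 without single-foundress replicate 8 and five-foundress replicate 10. SPH21 had 1.75 to 2.88 times the CPM of SP16 in every library. Both were highest in five-foundress replicate 10, with 665.1 CPM of SPH21 and 312.4 of SP16, and lowest in single-foundress replicate 8, with 100.02 and 53.7 CPM. SP22, the neighbour of SP16, followed it with r of 0.89 and rho of 0.88 (adjusted over 153 pairs, permutation p = 0.00017 for r), and r was 0.86 without the 2 libraries farthest on SP16. SP19, the next member of that cluster, did not follow, with r of -0.47.

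The second set held a pair of neighbours. SP120 and SPH126 had no other gene between them and an r of 0.97 and rho of 0.96 (adjusted permutation p over 153 pairs 0.00017 for r), with r of 0.96 without the 2 libraries farthest on SP120. The ratio of SP120 to SPH126 stayed between 1.58 and 2.12, with an SD of 0.13 on the log2 scale, while each gene alone had an SD of 0.50 and 0.53. SP68, which lies elsewhere in the gene order, went with SP123 (r = 0.81, rho = 0.81) and with SP120 (r = 0.79, rho = 0.78), and both r were at least 0.77 without the 2 libraries farthest on SP68. SP128, between SP123 and SP120 on the gene order, did not, with r of -0.14 and -0.12.

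**Figure D4:**
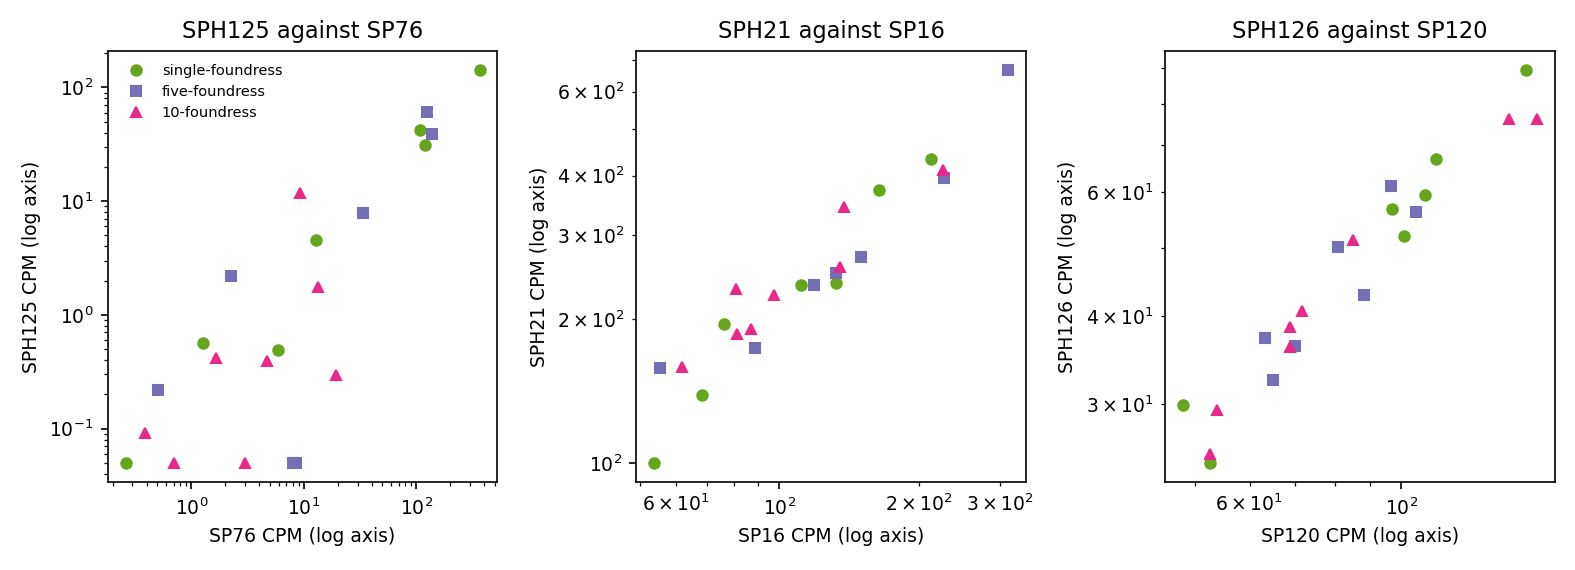
CPM of SPH125 against SP76, SPH21 against SP16 and SPH126 against SP120 in 22 head pools, log axes; green circles are single-foundress, purple squares five-foundress and pink triangles 10-foundress pools. Values of SPH125 below 0.05 CPM are drawn at 0.05. The ranges of the 3 groups overlap in each panel. In the first panel no 10-foundress pool exceeds 19.4 CPM of SP76 or 11.7 CPM of SPH125, and the points above these are single- and five-foundress pools. The ratio of SP120 to SPH126 stays between 1.58 and 2.12.

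Other genes moved with some members. A list of partners of protease cascades (serpin5, the melanization enzymes ppo1 and ppo3, and the recognition protein gene Gnbp1-2) had a summed 145.8 to 790.8 CPM, of which serpin5 took most (mean 241.0 CPM). Of 126 correlations of the 18 members with 7 summed lists, 27 passed an adjusted permutation p of 0.05, all of them positive. The partner sum went with SP142 (r = 0.88, rho = 0.86) and SPH21 (r = 0.85, rho = 0.82) in the first set (adjusted permutation p = 0.000315 for each r), with r of 0.77 and 0.81 without the 2 libraries farthest on the sum. This sum also passed with SP16, SP27, SP64, SP67 and SP110 (r = 0.72, 0.73, 0.56, 0.59 and 0.59). Lop1 went with SP120 (r = 0.82, rho = 0.88) and SPH126 (r = 0.80, rho = 0.85) in the second set (adjusted permutation p = 0.000504 and 0.000315 for r), with r of 0.83 for each without the 2 libraries farthest on Lop1. Lop1 also passed with SP123 (r = 0.58, rho = 0.62). The hexamerin sum went with SP120 and SPH126 as well (r = 0.68 and 0.70, rho = 0.62 and 0.66), and with SP68 (r = 0.61, rho = 0.52). The germline sum, of which oskar took most (mean 11.6 CPM), went with SP120 and SPH126 (r = 0.76 and 0.75, rho = 0.78 and 0.75). It also passed with SP68 and SP123 (r = 0.55 and 0.54, rho = 0.58 and 0.53). The odorant receptor sum went with SP64 (r = 0.78, rho = 0.76, and r of 0.67 without the 2 libraries farthest on the sum), and also with SPH21 (r = 0.64, rho = 0.54), SP142 (r = 0.63, rho = 0.61) and SP110 (r = 0.55, rho = 0.58). The gustatory receptor sum (17.7 to 30.3 CPM) went with SP68 (r = 0.63, rho = 0.57), SPH126 (r = 0.61, rho = 0.69) and SP120 (r = 0.58, rho = 0.65). The 2 defensins (antibacterial peptides, summed 33.4 to 5671 CPM) went with SP27 (r = 0.76, rho = 0.60), and also with SP137 (r = 0.57, rho = 0.36) and SP142 (r = 0.56, rho = 0.44). SP76 and SPH125 passed the threshold with none of the 7 lists. Whether the share of eye, fat body or other tissue in a pool took part in these values was not tested, and fewer cells of a type and less RNA per cell cannot be told apart in pooled heads.

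The question of the study was whether expression in the head changes with foundress number. In edgeR's quasi-likelihood test, with all 3 groups fitted together, no member passed an adjusted p of 0.05 over all 13599 genes in any comparison, and no other gene did. At an unadjusted p below 0.05, 0 members were found in the five- versus single-foundress comparison (1.76% of all genes, 0.831% higher and 0.934% lower), 6 in the 10- versus five-foundress comparison (1.81% of all genes, 1.14% higher and 0.669% lower), 7 in the 10- versus single-foundress comparison (3.18% of all genes, 1.68% higher and 1.5% lower) and 5 overall (1.96% of all genes). With DESeq2 the counts were 0 (1.64% of all genes by DESeq2), 2 (1.5%), 3 (3.19%) and 2 (1.91%), and the members were SP76 and SPH42, then SP76, SPH90 and SPH125, and overall SP76 and SPH90. Both comparisons with the 10-foundress group share its 8 libraries, and those with the single-foundress group share its 7. No member with a mean of at least 100 counts had groups that did not overlap, against 0.0215% of such genes in the five- versus single-foundress comparison and 0.0108% in each of the others.

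The median log2 fold change of the 51 members was -0.11 in the five- versus single-foundress comparison, where it was 0.00 over all genes, 0.05 (0.01 over all genes) in the 10- versus five-foundress comparison and -0.06 (0.01) in the 10- versus single-foundress comparison. In absolute size the medians were 0.36, 0.29 and 0.23 for the members and 0.12, 0.11 and 0.14 for all genes. Fold changes scatter more at low counts, and the 2 sets differ in counts. A mean of at least 100 counts was reached by 35.3% of the members and 68.4% of all genes. No set of genes matched for counts was compared, so these medians do not show a larger response of the family. Of the 7 members below an unadjusted p of 0.05 in the 10- versus single-foundress comparison, SP47, SP48 and SP122 had higher and SP17, SP76, SPH90 and SPH125 lower values in the 10-foundress group. In the 10- versus five-foundress comparison SP47, SP48 and SP122 were higher and SP76, SPH42 and SPH125 lower in the 10-foundress group.

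SP76 and SPH125 had the largest differences among well covered members. SP76 had a log2 fold change of -3.73 between the 10- and single-foundress groups (standard error 1.22, unadjusted p = 0.00554, adjusted p = 0.952 from edgeR) and of -2.77 between the 10- and five-foundress groups (standard error 1.17, unadjusted p = 0.0273, adjusted p = 1). For SPH125 these were -4.15 (unadjusted p = 0.0111, adjusted p = 0.952) and -3.14 (standard error 1.45, unadjusted p = 0.0414, adjusted p = 1). These fold changes compare group means of counts. For the difference in mean log2 CPM between the 10- and single-foundress groups, the exact permutation test (two-sided) gave p = 0.187 for SP76 (-2.09) and p = 0.0848 for SPH125 (-3.23), or 0.257 and 0.255 when adjusted over 9 such tests. The 9 tests took members with a small edgeR p in these same libraries, and some were added to the plan afterwards. Neither the exact p-values nor their adjustment allow for that choice. Between the 10- and five-foundress groups the exact permutation test gave p = 0.165 for SP76 (-1.87) and p = 0.288 for SPH125 (-1.95). Without single-foundress replicate 6 the log2 fold change of SP76 was -2.65 (unadjusted p = 0.0307 from edgeR) and that of SPH125 -2.89 (unadjusted p = 0.0547), both for the 10- versus single-foundress comparison. Without 10-foundress replicate 17, the highest of its group for SPH125, the log2 fold change of SPH125 was -6.19 in that comparison and -5.17 in the 10- versus five-foundress comparison, where it was -2.18 without five-foundress replicate 11.

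**Figure D5:**
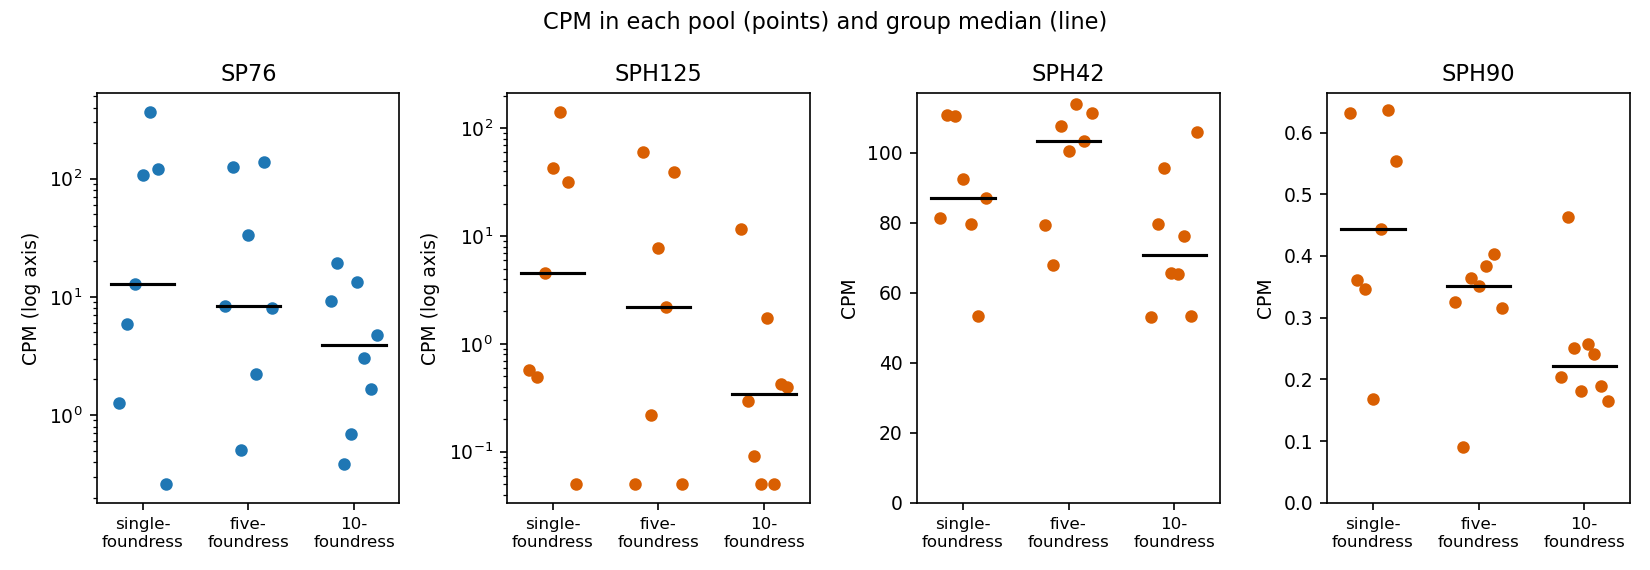
CPM of SP76, SPH125, SPH42 and SPH90 in each pool (points) by foundress number, with group medians (lines); the first 2 panels have log axes, on which values below 0.05 are drawn at 0.05, and the others start at 0. The groups overlap in every panel; the median of SPH42 is 87.2, 103.4 and 70.9 CPM in the single-, five- and 10-foundress pools.

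SPH42, a steady member, had 53.1, 70.9 and 105.9 CPM at the lowest, median and highest in the 10-foundress group, against 67.9, 103.4 and 113.9 CPM in the five-foundress group. Its log2 fold change was -0.39 (standard error 0.16, unadjusted p = 0.0243, adjusted p = 1 from edgeR), and the exact two-sided permutation test gave p = 0.0323, or 0.145 adjusted over the 9 tests. Neither of these exact values allows for the choice of SPH42 by its edgeR p. The 10-foundress pools were below the five-foundress median in 7 of 8. Without five-foundress replicate 14 the unadjusted p was 0.0552.

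SPH90 was covered thinly, by 5 to 22 counts per library. It had 0.165, 0.222 and 0.463 CPM in the 10-foundress group and 0.169, 0.443 and 0.636 CPM in the single-foundress group at the lowest, median and highest. The log2 fold change was -0.79 (standard error 0.31, unadjusted p = 0.0172, adjusted p = 0.952 from edgeR), with an exact two-sided permutation p = 0.0172, or 0.145 adjusted over the 9 tests. These exact values do not allow for the choice of SPH90 by its edgeR p either. Single-foundress replicate 2, outside the 22, had 242 counts of SPH90, and with it included the log2 fold change was -1.995 (unadjusted p = 0.00155 from edgeR) for the 10- versus single-foundress and -1.70 (unadjusted p = 0.00596) for the five- versus single-foundress comparison. In the five- versus single-foundress comparison the smallest p among members with a mean of at least 10 counts was that of SP22, which had 67.6, 100.5 and 128.6 CPM in the five-foundress and 54.3, 78.0 and 112.8 CPM in the single-foundress pools (log2 fold change 0.28, standard error 0.16, unadjusted p = 0.0815, adjusted p = 1 from edgeR). Next among these members were SPH90 (-0.50, standard error 0.31, unadjusted p = 0.119) and SP67 (0.74, standard error 0.45, unadjusted p = 0.119).

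The smallest p of any member in both comparisons with the 10-foundress group was that of SP48, and it came from 1 library. SP48 had 231 counts, or 6.99 CPM, in 10-foundress replicate 20, and between 0 and 7 counts in each of the other 21 libraries, 16 of which had none. Its log2 fold change was 5.80 in the 10- versus single-foundress comparison (standard error 1.72, unadjusted p = 0.00242, adjusted p = 0.952 from edgeR) and 7.04 in the 10- versus five-foundress comparison (standard error 1.90, unadjusted p = 0.00104, adjusted p = 1). Without replicate 20 these were 1.26 (unadjusted p = 0.349) and 2.50 (unadjusted p = 0.100), and the exact two-sided permutation test on all libraries gave p = 0.335 and 0.200. DESeq2 gave 1.48 (unadjusted p = 0.502) and 2.57 (unadjusted p = 0.245) with all 22 libraries. Single-foundress replicate 2, outside the 22, also had 231 counts of SP48 (4.21 CPM when the 23 libraries were scaled together), and with it included the 10- versus single-foundress value was 0.48 (unadjusted p = 0.699 from edgeR). SP47, its neighbour, also stood out in replicate 20 alone, with 96 counts against at most 10 in the other 21. SP43 and SP122 did so in 10-foundress replicate 24, with 36 and 24 counts, against at most 7 and 3 in the other 21.

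Such single-library values, at least 5-fold above every other library with at least 20 counts, a rule set after SP48 had been seen, occurred in 4 of the 36 members that reached 20 counts in a library and in 0.125% of all genes that did. These 4 members had at most 10 counts in any other library. They thus entered the comparison only through the library in which they stood out. Genes with many counts in most libraries have less room for such a value, so the 2 shares do not show a trait of the family. SP47 and SP48 were the only 2 genes of the table that stood out so in replicate 20, while replicate 24 had 7 such genes with SP43 and SP122 among them. Without replicates 20 and 24, 1 member (SPH42) was below an unadjusted p of 0.05 in the 10- versus five-foundress comparison (2.4% of all genes in that fit), 2 (SP76 and SPH125) in the 10- versus single-foundress comparison (6.83%) and 1 (SPH42) overall (2.75%). Among members with a mean of at least 10 counts, 4, 4 and 3 of 33 were below it with all 22 libraries, against 1.33%, 2.76% and 1.38% of the genes that had it. SP48 was 1 of them each time, and its mean of 11.1 counts came mostly from the 231 counts in replicate 20. This limit on the mean therefore did not remove the single-library value of SP48.

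The partner genes showed no difference past the unadjusted threshold, with 0 of 4 higher and 0 of 4 lower in any of the 3 pairwise comparisons. Between the 10- and single-foundress groups the log2 fold change was -0.08 for serpin5 (standard error 0.34, unadjusted p = 0.816), 0.95 for ppo1 (standard error 0.58, unadjusted p = 0.118), 0.04 for ppo3 (standard error 0.27, unadjusted p = 0.875) and -0.04 for Gnbp1-2 (standard error 0.36, unadjusted p = 0.905), each from edgeR. The summed CPM of the SP genes was 603 ± 170 in the single-foundress (n = 7), 622 ± 173 in the five-foundress (n = 7) and 525 ± 104 in the 10-foundress pools (SD, n = 8). That of the SPH genes was 420 ± 140, 468 ± 161 and 375 ± 74.8 (SD, same n). The ranges of the 3 groups overlapped for both sums, and the sums were not tested.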

How the data were processed

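The deposited values are raw read counts by gene for 23 libraries. For these the authors kept reads whose mean Phred score was 30 or more, trimmed adapters with cutadapt 1.8.3, aligned reads to Nvit 2.1 with tophat2 2.0.14 and counted them with HTSeq in union mode. The library kit does not mark strand, so that genes overlapping on opposite strands are uncertain.

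Libraries were grouped by labelled foundress number, without single-foundress replicate 2. The labels call the pools separate samples, and no label gives a pool's day. The analysis ran edgeR 4.0.16 under R 4.3.3 (TMM, quasi-likelihood fit, genes with at least 1 read, Benjamini and Hochberg adjustment over all genes). Standard errors were obtained as the size of the log2 fold change over the root of F. SDs used log2 CPM with a prior count of 2. DESeq2 1.42.0 served as an alternative. Correlations used 100000 permutations (numpy 2.4.6). Members named were those with the 5 highest mean CPM of each class, the 8 largest and 4 smallest SDs (mean of at least 100 counts), the 3 smallest p per comparison (mean of at least 10 counts), and those next to the SD limit, and any other member was named after its values were seen. A rule for members far from all others in single-foundress replicate 2 (mean of at least 100 counts) named none. Members, lists and tests were chosen with earlier results of these data known. No sequence, product name or transcript length was used, so that the planned level per length was not computed.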

Additional observations from a re-analysis of the deposited data

Results flagged for a closer look

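Within groups, 5 of 51 tested sets of values of the 17 members named by rule had 1 library farther from the others than Dixon's 95% criterion allows. Chance flags about 1 in 20 sets of independent, normally distributed values. The members were named partly by SD and p in these same libraries, and most values of SP48 were tied at 0, so that rate does not strictly apply here. SP48 in 10-foundress replicate 20 had a gap of 0.656 of the group's range on the log2 scale (6.99 CPM, against 0.231 CPM in the next library). SP48 in five-foundress replicate 16 had a gap of 1, which rests on a single read where the others had none. SPH90 was low in five-foundress replicate 11 (gap 0.815, 0.0902 CPM against 0.315 CPM in the next library) and high in 10-foundress replicate 18 (gap 0.592, 0.463 CPM against 0.257 CPM). SP82 was low in five-foundress replicate 14 (gap 0.635, 2.69 CPM against 3.16 CPM).

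In single-foundress replicate 2, which is outside the comparisons, 2 members stood more than 2-fold above all 22 other libraries when the 23 were scaled together. SP37 had 22.9 CPM there (1259 counts), against 1.04 to 3.75 CPM in the others. SPH90 had 4.41 CPM (242 counts), against 0.0914 to 0.645 CPM.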

How the results depend on the processing

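Counts of members below an unadjusted p of 0.05 in the 10- versus five-foundress, 10- versus single-foundress and overall tests were 2, 3 and 2 with DESeq2, 3, 3 and 3 with filterByExpr (1.44%, 2.76% and 1.47% of the genes it kept), 0, 0 and 0 at an adjusted p below 0.05, and, in alternatives chosen after seeing the data, 1, 2 and 1 without replicates 20 and 24 together, with 4 and 3 in the last 2 tests at a mean of at least 10 counts. SP48, which reached that mean through replicate 20, was 1 of the 4 and 1 of the 3. The five- versus single-foundress count was 3 with all 23 libraries (SP37, SP48 and SPH90, with 3.67% of all genes). Leaving out each library in turn gave 0 to 2, 2 to 8, 4 to 8 and 2 to 6 members in the 4 tests. The share of all genes below the threshold was not computed for these fits, so these counts are not set against all genes. In the 10- versus single-foundress comparison that share was 3.18% with all 22 libraries and 6.83% without replicates 20 and 24. The 10- versus five-foundress count was 2 without five-foundress replicate 11 and 3 without 10-foundress replicate 20, the 10- versus single-foundress count 4 without replicate 20, and the overall count 2 without replicate 20 and 3 without single-foundress replicate 6. SP48 reversed to -0.43 in the 10- versus single-foundress comparison without replicates 20 and 24. The difference of SPH125 between the 10- and five-foundress groups lost its unadjusted threshold when any of 9 of the 22 libraries was left out, with DESeq2, with the legacy quasi-likelihood form and without replicates 20 and 24. That of SPH90 between the 10- and single-foundress groups lost it without replicates 20 and 24. The difference of SP76 between the 10- and five-foundress groups lost it without five-foundress replicate 11, without five-foundress replicate 15 and without replicates 20 and 24. Among members averaging 10 counts or more the median was 3.19 CPM (SP) and 32.2 CPM (SPH), of which the SPH value again depends on the mean of SPH125. In this set 3 SP genes had an SD above 1 (SP76, SP48 and SP102), and the share over all genes with this mean was not computed. SP48 reached this mean through replicate 20, and SP102 had as few as 2 counts in a library. Leaving out libraries gave medians of 0.834 to 0.883 CPM (SP) and 5.62 to 9.05 CPM (SPH), and 1 wide member of each class throughout. Of 102 alternative values for the 34 correlations, 2 lost an unadjusted permutation p of 0.05 and 0 reversed, from 0.32 to 0.97. Causes were not tested. Low counts limit the 33 members under a mean of 100 counts. No paired analysis was possible because no replicate number is shared between groups.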
